A study of Homo sapiens with 12 samples.

Results

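The genes described here are the protein-coding keratins, chosen as every gene of the count table whose symbol is KRT followed by a number and, in a few cases, a letter A, B or C. The rule found 55 keratin genes among 60603 genes. T24 is a cell line long established from a human bladder carcinoma. Its transcripts were measured by poly(A) RNA-seq in 4 groups of 3 libraries. The groups were WT T24 cells without treatment, WT T24 cells with 5-Ad-IAA, NS1 T24 cells without treatment and NS1 T24 cells with 5-Ad-IAA. 5-Ad-IAA is an auxin derivative that acts as the inducer in AlissAID, a system for degrading proteins that carry no added tag, and the labels neither spell out NS1 nor say which parts of the system the WT cells carry. The dose and duration of treatment are not used here, and it is not given whether the NS1 line is 1 clone or whether the replicates were separate cultures. If they were not, the p-values measure only the spread between these samples. In either case the labels name 1 line per genotype, so p-values between NS1 and WT do not measure spread between lines.

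Keratins are the intermediate filament proteins of epithelial cells. Each filament is built from pairs of an acidic type I and a basic type II keratin, so the members of both types are used together. In the bladder lining, KRT8, KRT18, KRT19 and KRT7 are the simple-epithelium keratins, KRT5 and KRT14 mark the basal cells next to the basement membrane, and KRT20 marks the luminal umbrella cells. KRT17 and KRT15 are basal-type keratins of stratified epithelium, and KRT6A, KRT6B, KRT6C and KRT16 are keratins of wounded or hyperproliferating epithelium.

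The libraries held between 10593934 and 20266996 counts, with replicate 1 the deepest library in each group. Replicate 1 stood apart from replicates 2 and 3 for several keratins in both lines, so results that rest on it are given with and without it. Markers of the cell type were mixed. The urothelial and epithelial list had UPK3A with no count and CDH1 and UPK1B with at most 2 counts in any library, while GATA3, a transcription factor of urothelium, had a mean of 43.0 CPM (the read count normalised to library size, with TMM scaling). EPCAM, an epithelial surface protein, averaged 2.09 CPM. FN1, a mesenchymal matrix gene, averaged 4952.7 CPM and made up most of the sum of 4 mesenchymal markers. That sum was 2189.1 to 9055.6 CPM in WT, 3728.9 to 4189.7 CPM in untreated NS1 and 4889.1 to 7451.4 CPM in treated NS1 libraries. Of the 4, CDH2 was higher and VIM lower in NS1 than in WT cells at adjusted p under 0.05 (edgeR), untreated and treated. Over all genes 12.5% and 28.2% passed. The summed level of the 8 urothelial and epithelial markers was 27.0 to 57.3 CPM in WT libraries, 31.5 to 36.3 CPM in untreated NS1 libraries and 64.3 to 107.7 CPM in treated NS1 libraries. GATA3 made up most of this sum, with 60.3 to 104.5 CPM in treated NS1 libraries. EPCAM was lower in untreated NS1 than in untreated WT cells (means 0.945 and 3.03 CPM, adjusted p under 0.05, edgeR). Of 6 fibroblast markers, 4 had at most 3 counts in any library, DCN had none, and the sum ran from 2.53 to 7.73 CPM outside treated NS1 cells and from 8.42 to 21.8 CPM in them. PDGFRB, 1 of the 2 tested, was higher with inducer in NS1 cells (means 2.31 and 11.8 CPM, adjusted p under 0.05, edgeR). It was also called higher in treated NS1 than in treated WT cells (mean 1.94 CPM in WT). COL1A1, the other, was called in neither comparison. Over all genes 6.15% and 28.2% passed. The sum of 2 endothelial markers was 0.63 to 3.37 CPM in WT, 0.0617 to 0.436 CPM in untreated NS1 and 1.14 to 2.99 CPM in treated NS1 libraries. PECAM1, an adhesion protein of endothelium and the 1 of them tested, rose with inducer in NS1 cells by 3.19 on the log2 scale (SE 0.748, adjusted p = 0.0251, edgeR), with at most 47 counts in any library, while CDH5, the cadherin of endothelium, was at most 0.192 CPM in untreated and 0.175 CPM in treated NS1 libraries. The blood marker PTPRC had at most 1 count. The part of these markers in the keratin results was not tested.

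T24 cells expressed the simple keratins at high levels and few others. Of the 55 genes, 17 had no count in any library, 17 had between 1 and 3 counts in their highest library, and 21 had more than 3. A filter on low counts kept 11 of them: the type II keratins KRT7, KRT8, KRT80 and KRT81 and the type I keratins KRT18, KRT19, KRT10, KRT17, KRT15, KRT34 and KRT222. A count of 3, taken as the detection floor, corresponds to 0.141 to 0.29 CPM depending on the library, a limit that covers counting error only.

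The classes differed in how many members were seen. All 4 simple keratins were expressed. The luminal keratin KRT20 had 2 counts in 1 library and none in the other 11, which is at the floor. Of 4 basal keratins, KRT5 had no count, KRT14 had 1 count in all, and KRT15 and KRT17 passed the filter. TP63, the transcription factor that maintains basal cells, also had no count. The 4 stress keratins were above 3 counts in at least 1 library but did not pass the filter, with highest counts of 7 for KRT6A, 4 for KRT6B, 4 for KRT6C and 4 for KRT16. Among 7 mucosal and corneal keratins only KRT13 exceeded the floor, with at most 6 counts. Of 6 epidermal keratins only KRT10, the partner of KRT1 in suprabasal skin, was above it. The 17 hair shaft keratins had 5 members above 3 counts, KRT81 and KRT34 with the filter passed and KRT86, KRT33A and KRT33B without. Among 9 hair follicle sheath keratins KRT27 alone was above it, with at most 25 counts. KRT80, a widely expressed type II keratin, and KRT222, a divergent family member, were tested, and KRT23 reached 6 counts.

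The keratins compare with each other only per length of transcript. Over the 12 libraries the mean level was 1747.5 CPM per kb for KRT7, 936.9 for KRT8, 656.0 for KRT18 and 236.7 for KRT19. KRT10 followed at 13.4, KRT17 at 8.55 and KRT80 at 8.3 CPM per kb. KRT34, KRT222, KRT15 and KRT81 were all below 1 CPM per kb, between 0.849 and 0.411. The 4 simple keratins made up 99.07% of the summed keratin level. KRT7, KRT8, KRT18 and KRT19 kept this order in the mean of each group. Further down the order was not the same in every group: KRT10 came next after KRT19 in WT and in untreated NS1 cells, while KRT17 did in treated NS1 cells. Within treated NS1 cells KRT17 (20.4 CPM per kb), KRT80 (15.9) and KRT10 (12.2) did not differ beyond their spread, since replicate 1 had 0.976 CPM per kb of KRT17 against 15.7 of KRT10. The order also depends on the length used: with coding length KRT80 came next after KRT19 over the 12 libraries, and with the union of all exons KRT18 (318.4 CPM per kb) stood above KRT8 (289.5). With coding length KRT15 was at 2.22 CPM per kb, above KRT222 (1.51) and KRT34 (1.13). The transcript used for KRT15 was 5237 bases long.

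**Figure D1:**
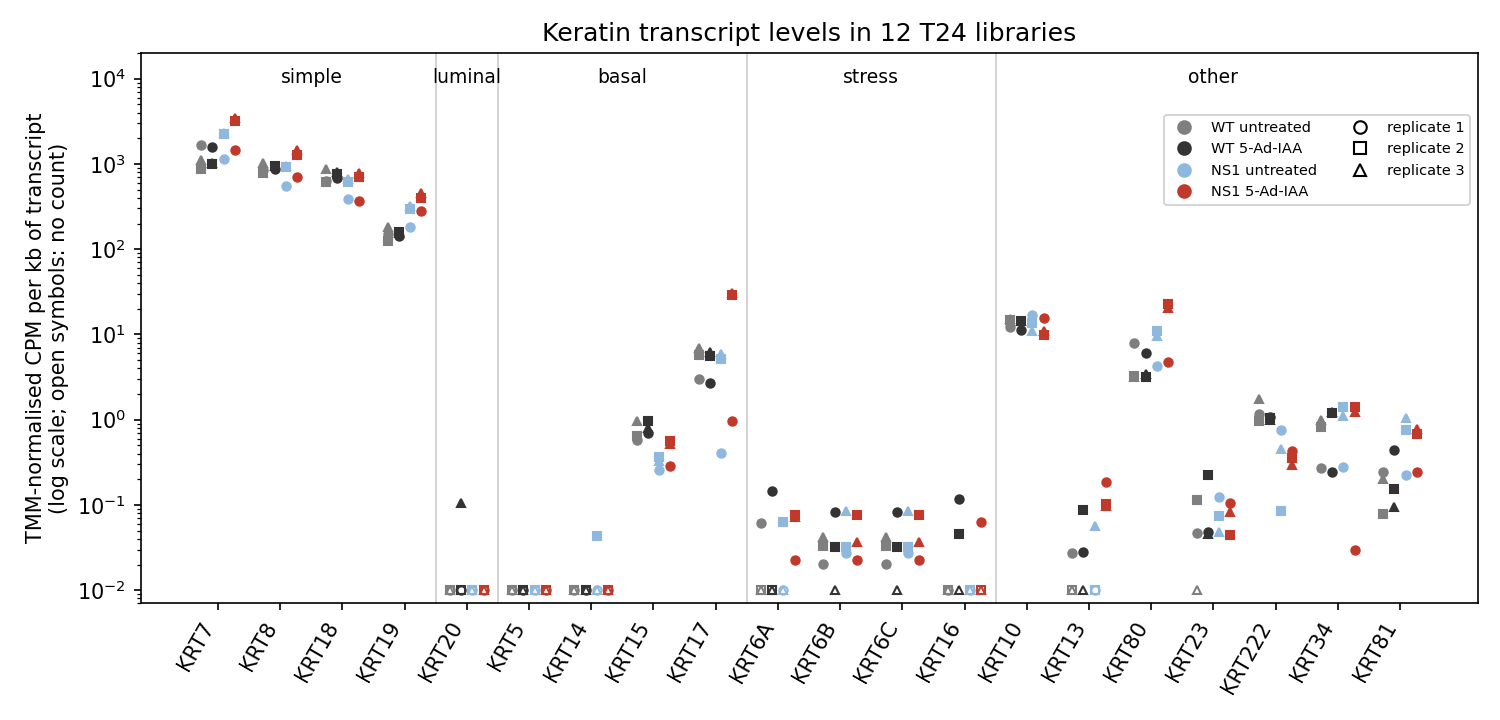
Normalised level (CPM per kb of transcript, log scale) of 20 keratins in each of the 12 libraries, grouped as simple, luminal, basal, stress (hyperproliferation) and other; colour gives the group, symbol shape the replicate, and open symbols at 0.01 mark libraries with no count. The 4 simple keratins lie above all others, KRT5 has no count, and KRT17 in treated NS1 cells is low in replicate 1 and high in replicates 2 and 3.

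Several keratins share sequence with other genes, which bears on how far their counts can be trusted. The submitters' notes name featureCounts, but whether strand or multiply mapping reads were used is not given in the sources used here. KRT8 lies on the minus strand at chr12:52897187-52949954 and KRT18 on the plus strand at chr12:52948871-52952901 (GENCODE 29, GRCh38). Their exons overlap over 525 bases on opposite strands. KRT8 also has 51 pseudogenes in the table, of which 31 had more than 3 counts, and together they held 25.4% to 29.8% as many counts as KRT8 itself. The 67 pseudogenes of KRT18, 22 of them above 3 counts, held 4.57% to 5.64%. One KRT8 pseudogene, KRT8P45 at chr1:157073257-157074703 (plus strand), had 676 to 1414 counts in the libraries. The stretch of 90 bases below is the first of the KRT8 coding sequence to differ at exactly 3 positions in an ungapped match to KRT8P45. It was picked by that rule, so it is an example and does not show how alike the 2 genes are elsewhere. It comes from the GENCODE 29 transcripts, with KRT8 bases 1364 to 1453 of ENST00000552551.5, and the capitals mark the bases that differ.
KRT8: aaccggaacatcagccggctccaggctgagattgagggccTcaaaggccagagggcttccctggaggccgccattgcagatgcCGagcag
KRT8P45: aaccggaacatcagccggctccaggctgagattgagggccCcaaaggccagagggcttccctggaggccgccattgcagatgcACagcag
Windows of 75 bases, the number of cycles of the sequencing kit, were compared with all GENCODE 29 transcripts on both strands. Reads may have been shorter than this. KRT8 shared 18.7% of its windows with other genes and KRT18 25.5%, while KRT19, KRT10, KRT80 and KRT15 shared 0.0%, KRT17 4.2% and KRT7 9.0%. The windows of KRT7 were shared with its antisense gene KRT7-AS, whose counts were 20.4% to 22.2% of those of KRT7 in each library. KRT222 shared 57.1% with a longer gene of the same strand, AC073508.2, which had 814 to 2423 counts per library, so its values are uncertain. KRT81 shared 36.6% of its windows, mostly with its neighbour KRT86. With windows of 38 bases the shares were higher. They were 60.7% for KRT18, 47.4% for KRT8, 26.4% for KRT17, 12.5% for KRT7 and 5.2% for KRT19. KRT10, KRT80 and KRT15 then shared 1.0%, 0.9% and 0.9%. KRT6B and KRT6C had equal counts in 12 of 12 libraries. Adding pseudogene counts moved the inducer difference of KRT8 in NS1 cells from 0.47 to 0.48 (mean log2 difference), and that of KRT18 stayed at 0.11.

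The first comparison asks what the inducer did to keratin transcripts in NS1 cells. Of the 11 keratins tested, KRT17, KRT80, KRT19, KRT7, KRT8 and KRT15 were higher in the treated library of each same-numbered pair. KRT18, the usual filament partner of KRT8, was higher in 2 of 3. How many of all genes rose in each pair was not counted. Same-numbered libraries of a line, treated and untreated, varied together, although replicates 2 and 3 correlated with each other about as well as with their own number. A model in which each such pair forms a block stands beside the one without a block. Without the block, 0 of the 11 keratins tested were called at an adjusted p under 0.05 (edgeR quasi-likelihood test, Benjamini-Hochberg over 17775 genes), against a background of 6.15% of all genes. In bulk RNA, a change in the number of cells that express a keratin and a change in the RNA per cell cannot be told apart. KRT17 and KRT19 were below 0.05 before adjustment, and DESeq2 also called 0. With the block, 5 of 11 keratins rose and none fell. The background was 25.9% of genes called and 13.0% called higher.

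KRT17, encoded at chr17:41619441-41624842 on the minus strand, moved most. Untreated NS1 replicates 1, 2 and 3 had 0.679, 8.43 and 9.71 CPM, and the treated replicates had 1.61, 48.5 and 50.7. Replicate 1 was low in both groups, so the groups overlapped, but the treated library was 2.37-, 5.76- and 5.22-fold higher within the pairs. In the fit with the block the log2 fold change was 2.38 (SE 0.133, adjusted p = 4.31e-08), and without it 2.45 (SE 0.921, adjusted p = 0.14). The SE is derived from the F statistic of the test and is not the spread between the pairs, whose log2 ratios were 1.25, 2.53 and 2.38. The counts in replicate 1 were 11 and 31, against 101 or more in the other NS1 libraries.

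KRT80, at chr12:52168996-52192000 on the minus strand, had 16.2, 42.4 and 37.0 CPM in untreated and 18.5, 87.1 and 78.9 CPM in treated NS1 cells. Again replicate 1 was the low library, with a 1.14-fold difference in its pair against 2.06- and 2.13-fold in the others. The log2 fold change was 0.82 with the block (SE 0.137, adjusted p = 0.000471) and 0.95 without it (SE 0.521, adjusted p = 0.338).

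Among the simple keratins, KRT7 (chr12:52232520-52252186, plus strand), a type II keratin of glandular and transitional epithelium, had 2003.3, 3927 and 4030.4 CPM in untreated NS1 cells. The treated values were 2543, 5556 and 6019.9 CPM. Each pair rose, by 1.27-, 1.41- and 1.49-fold, although the groups overlapped through replicate 1. With the block the log2 fold change of KRT7 was 0.48 (SE 0.0866, adjusted p = 0.000934).

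KRT19 (chr17:41523617-41528308, minus strand), the smallest type I keratin, had 252.3, 405.9 and 443.5 CPM without and 392.1, 549 and 631 CPM with inducer in NS1 cells. The pairs differed by 1.55-, 1.35- and 1.42-fold, so for KRT19 replicate 1 showed a rise no smaller than the others. With the block the log2 fold change was 0.53 (SE 0.0952, adjusted p = 0.000886).

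KRT8 had 1156, 1968 and 2023 CPM without and 1479, 2678 and 3074 CPM with inducer. Its pairs differed by 1.28-, 1.36- and 1.52-fold. With the block this was 0.47 on the log2 scale (SE 0.0864, adjusted p = 0.00103). KRT18 had 605.1, 953.7 and 1052.0 CPM without and 571.8, 1082.4 and 1235.0 CPM with inducer. The log2 fold change of KRT18 was 0.11 with the block (SE 0.0897, adjusted p = 0.409), and it was not called in either fit.

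The remaining NS1 keratins did not pass the test in either fit. KRT10 was at 35.4, 29.1 and 23.6 CPM untreated and 33.3, 21.1 and 23.5 CPM treated, and KRT15 at 1.36, 1.89 and 1.73 against 1.51, 2.97 and 2.74 CPM. KRT34, KRT81 and KRT222 had at most 34 counts in any NS1 library. Leaving replicate 1 out of all groups, and fitting without a block, 4 keratins were called higher, KRT17, KRT80, KRT7 and KRT8, against a background of 11.4%. KRT19 then had an adjusted p of 0.0701. Leaving out only replicate 1 of treated NS1 cells gave 2 calls, KRT17 and KRT8, in a fit for which the share over all genes is not given. Without replicate 2, without replicate 3, or without untreated replicate 1, treated replicate 2 or treated replicate 3 of NS1 cells, 0 were called and 0 were below 0.05 before adjustment. The share over all genes is not given for these fits either.

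**Figure D2:**
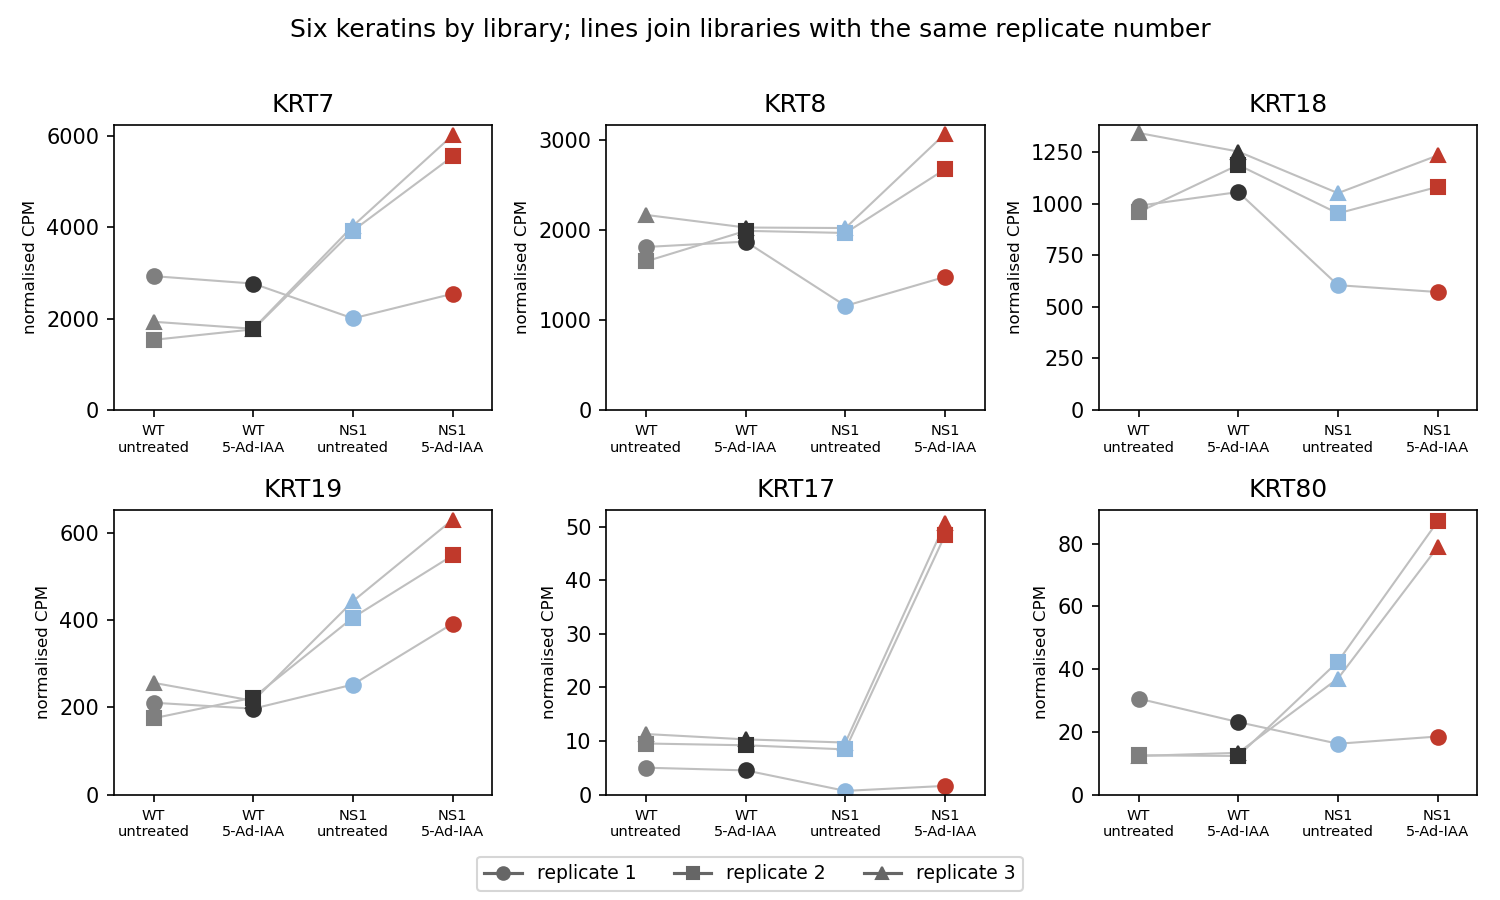
Normalised CPM (linear scale from 0, a separate scale for each gene) of KRT7, KRT8, KRT18, KRT19, KRT17 and KRT80 in the 12 libraries; lines join libraries with the same replicate number and are not a time course. KRT17 lies between 4.51 and 11.3 CPM in WT cells and reaches 48.5 and 50.7 CPM in replicates 2 and 3 of treated NS1 cells, while replicate 1 stays at 1.61 CPM.

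The same comparison in WT cells asks what 5-Ad-IAA did without the NS1 genotype. None of the 11 keratins was called, with or without the block, and 0 were below 0.05 before adjustment in either fit or in DESeq2. The background was 0.0% in both fits, since no gene at all was called. KRT17 had 5.01, 9.53 and 11.3 CPM untreated and 4.51, 9.2 and 10.3 CPM treated, which is -0.11 on the log2 scale with the block (SE 0.134). KRT7 had 2930.2, 1533.5 and 1930.0 CPM untreated and 2767, 1763 and 1776 CPM treated. The WT groups overlapped for these genes, and the log2 fold changes of the 11 keratins ran from -0.29 (KRT222) to 0.50 (KRT81) without the block, each at adjusted p = 1.0. KRT8, KRT18 and KRT19 had log2 fold changes of 0.07, 0.10 and -0.003 with the block in WT cells.

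Whether the inducer effect differed between the lines was tested as the interaction of genotype and inducer. Without the block, 0 of 11 keratins were called (background 0.0225%), 0 were below 0.05 before adjustment and DESeq2 called 0. With the block, the same 5 keratins had a larger inducer effect in NS1 than in WT cells, against 14.0% of genes called and 6.98% called higher. The differences on the log2 scale were 2.49 for KRT17 (SE 0.191, adjusted p = 4.02e-06), 0.99 for KRT80 (adjusted p = 0.00557), 0.53 for KRT19 (0.0173), 0.48 for KRT7 (0.0178) and 0.39 for KRT8 (0.0436). KRT18 had 0.01 (adjusted p = 0.973). Without replicate 1 and without a block, KRT17 and KRT80 were called, 2 keratins against a background of 3.24%.

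**Figure D3:**
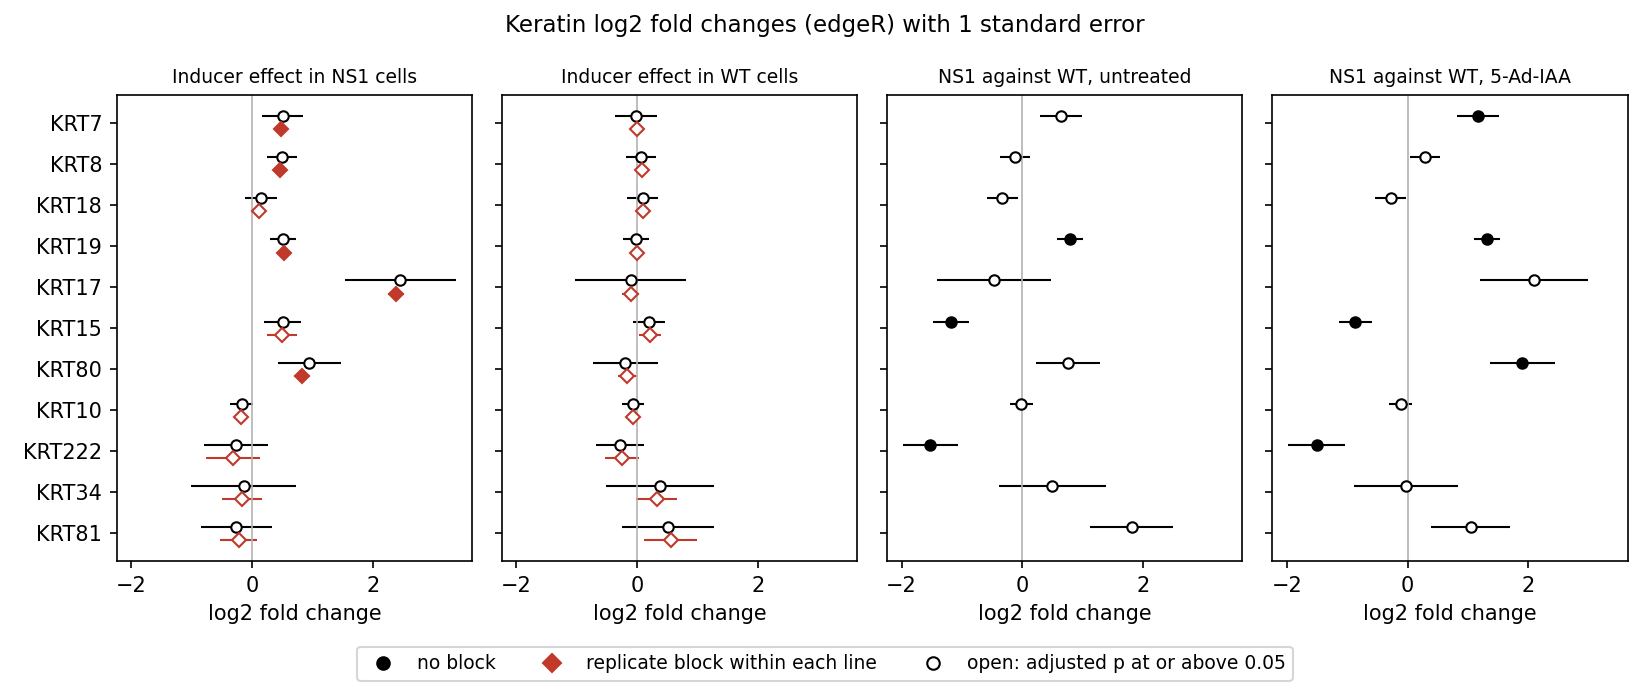
Log2 fold change with 1 standard error (edgeR) of the 11 tested keratins in 4 comparisons; black circles are the fit without a block and red diamonds the fit in which each same-numbered pair of a line forms a block, given for the inducer comparisons, and filled symbols have an adjusted p under 0.05. The standard error is derived from the F statistic of the test and is not the spread between pairs. In NS1 cells the 5 filled diamonds lie between 0.47 and 2.38, and in WT cells every symbol is open.

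The NS1 line was then compared with the WT line without inducer. Here KRT19 was higher and KRT15 and KRT222 were lower in NS1 cells, 3 of 11 keratins against a background of 12.5% (5.45% higher, 7.05% lower). DESeq2 called the same 3 genes. Same-numbered libraries correlated only weakly across lines, so these fits carry no block. A fit with a block for each number called the same 3 genes. Ratios of same-numbered libraries across lines are given to show replicate 1, not as pairs. KRT19 had 210.6, 174.9 and 256.3 CPM in WT and 252.3, 405.9 and 443.5 CPM in NS1 cells. Replicate 1 of NS1 lay within the WT range, and the log2 fold change of KRT19 was 0.78 (SE 0.214, adjusted p = 0.0312).

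KRT15 (chr17:41513743-41522529, minus strand), a type I keratin of basal cells, had 3.05, 3.38 and 5.03 CPM in WT and 1.36, 1.89 and 1.73 CPM in NS1 cells without inducer. The groups did not overlap, and the log2 fold change was -1.18 (SE 0.293, adjusted p = 0.0196). KRT222 (chr17:40654665-40665181, minus strand) had 2.01, 1.65 and 3.0 CPM in WT and 1.3, 0.145 and 0.769 CPM in NS1 cells. Its groups did not overlap either, and the difference was -1.52 on the log2 scale (SE 0.451, adjusted p = 0.0427), but NS1 replicate 2 held only 2 counts.

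KRT7 and KRT80 depended on replicate 1 in this comparison. KRT7 in NS1 relative to WT was 0.684-fold in replicate 1 and 2.56- and 2.09-fold in replicates 2 and 3. KRT80 was 0.531-fold in replicate 1 and 3.38- and 3.02-fold in the others. Over all 12 libraries neither was called, with adjusted p = 0.253 for KRT7 and 0.387 for KRT80. Without replicate 1, 7 of 13 tested keratins were called (background 19.6%): KRT7, KRT80, KRT19, KRT81 and KRT33B higher and KRT15 and KRT222 lower. The log2 fold changes were then 1.20 for KRT7 (SE 0.133, adjusted p = 0.00012) and 1.68 for KRT80 (SE 0.124, adjusted p = 7.13e-06). Without replicate 2, or without replicate 3, 0 keratins were called, with 2 below 0.05 before adjustment in each case. The count also changed with single libraries left out. Without NS1 untreated replicate 3 it was 0. It was 1 without WT untreated replicate 1, 2 or 3, or NS1 untreated replicate 2. The share over all genes is not given for these fits or for those without replicate 2 or 3. The lower counts are thus not a result about keratins.

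With inducer in both lines, 5 of 11 keratins differed between NS1 and WT, against a background of 28.2%. KRT19, KRT7 and KRT80 were higher (background 13.6%) and KRT15 and KRT222 lower (14.5%). DESeq2 called the same 5 genes. KRT19 had 196.9, 222.3 and 215.0 CPM in WT and 392.1, 549 and 631 CPM in NS1 cells. The groups did not overlap, and the log2 fold change was 1.31 (SE 0.216, adjusted p = 0.000751). KRT19 was the 1 keratin called in this comparison whichever replicate number was left out, and also in each fit that left out 1 library.

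KRT7 with inducer had 2767, 1763 and 1776 CPM in WT and 2543, 5556 and 6019.9 CPM in NS1 cells. The groups overlapped through replicate 1, and the log2 fold change was 1.16 (SE 0.349, adjusted p = 0.0242). KRT80 had 23.1, 12.3 and 13.3 CPM in WT and 18.5, 87.1 and 78.9 CPM in NS1 cells, at 1.90 (SE 0.538, adjusted p = 0.0186). For both genes the NS1 library was below the WT library in replicate 1 and at least 3.15-fold above it in replicates 2 and 3.

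KRT15 stayed apart between the treated lines, with 3.7, 5.04 and 4.14 CPM in WT and 1.51, 2.97 and 2.74 CPM in NS1 cells (log2 fold change -0.86, SE 0.278, adjusted p = 0.0333). KRT222 had 1.85, 1.78 and 1.71 CPM in WT and 0.728, 0.611 and 0.498 CPM in NS1 cells (log2 fold change -1.50, SE 0.467, adjusted p = 0.0285). Neither gene's groups overlapped. KRT17 in treated cells ranged from 4.51 to 10.3 CPM in WT and from 1.61 to 50.7 CPM in NS1 cells, being 0.357-fold in replicate 1 and 5.28- and 4.94-fold in replicates 2 and 3. Its log2 fold change over all libraries was 2.08 with adjusted p = 0.099. KRT8 and KRT18 were not called, at 0.30 and -0.28.

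Without replicate 1, 10 of 13 keratins differed between the treated lines (background 34.0%). KRT17, KRT8, KRT81 and KRT86 joined those higher and KRT10 those lower. Without replicate 2, or without replicate 3, only KRT19 was called in this comparison. The count was also 1 without WT treated replicate 2 or 3 and 2 without NS1 treated replicate 2 or 3. The share over all genes is not given for these fits or for those without replicate 2 or 3.

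The balance of the 2 keratin types is given as a description, with no test. Summed type II keratins were 1.98- to 3.15-fold the summed type I keratins in WT libraries, on CPM per kb, and 2.88- to 3.94-fold in NS1 libraries. The ranges overlapped. WT replicate 1 had ratios of 3.15 and 2.95 in untreated and treated cells, against 2.88 and 3.23 for NS1 replicate 1, and the other 4 WT libraries were between 1.98 and 2.17. KRT7 made up 34.3% to 50.1% of the summed level in WT and 50.1% to 56.7% in NS1 libraries, and KRT18 19.0% to 27.2% and 12.4% to 17.0%.

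The ratio of KRT8 to KRT18, the pair that forms the filaments of simple epithelium, was 1.34, 1.26 and 1.19 in untreated WT, 1.3, 1.23 and 1.19 in treated WT, 1.4, 1.52 and 1.41 in untreated NS1 and 1.9, 1.82 and 1.83 in treated NS1 libraries, on CPM per kb. The 2 WT groups overlapped, untreated NS1 lay above both, and treated NS1 lay above untreated NS1, in all replicates including replicate 1. This ratio was singled out after its values were seen, among 4 ratios computed, and no test was made of it. Its size depends on the lengths used, and the exon overlap and pseudogenes of both genes enter it.

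**Figure D4:**
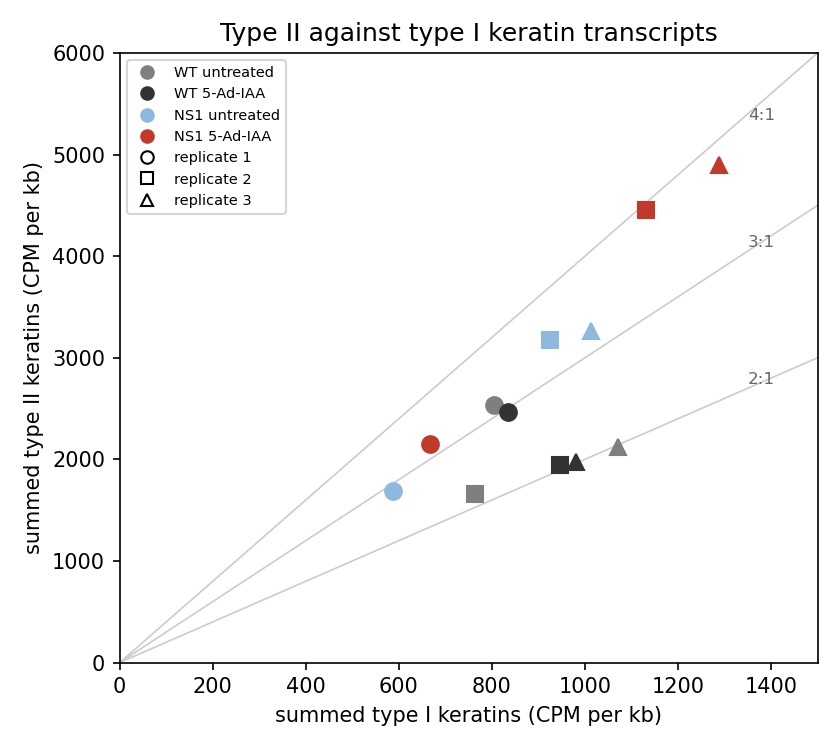
Summed type II against summed type I keratin level (both in CPM per kb of transcript) in the 12 libraries, with grey lines at ratios of 2, 3 and 4 to 1; colour gives the group and shape the replicate. WT replicates 2 and 3 lie close to the 2 to 1 line, the NS1 libraries and WT replicate 1 lie near 3 to 1 or above, and replicates 2 and 3 of treated NS1 cells hold the highest sums.

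In all, the keratins took 0.451% to 0.633% of the counts of WT libraries, 0.422% to 0.742% of untreated NS1 libraries and 0.5% to 1.04% of treated NS1 libraries.

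Genes taken as partners of keratin filaments were examined as a list of 17, of which 13 were tested. Some of them, not all, link the filaments to desmosomes or to the cytoskeleton. In NS1 cells with inducer 2 rose without the block (background 6.15%), JUP by 1.22 on the log2 scale (SE 0.204, adjusted p = 0.00593) and PPL by 1.37 (SE 0.296, adjusted p = 0.0175). JUP encodes plakoglobin and PPL periplakin, both of which tie keratins to cell junctions. With the block 5 rose and 1 fell, DSP, FAM83H, EPPK1, PPL and JUP higher and SFN lower, or 6 of 13 against 25.9% of all genes called. The median of the 13 was 0.11 against 0.005 over all genes with the block. Without replicate 1 and without a block 3 rose (EPPK1, PPL and JUP), against 11.4% of all genes called. In WT cells none was called in either fit.

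DSP, which encodes desmoplakin, the protein that binds keratin filaments at desmosomes, ranged from 19.9 to 25.8 CPM in WT and from 108.4 to 226.5 CPM in NS1 libraries. The groups did not overlap, and the log2 fold change between lines was 2.59 without inducer (SE 0.192, adjusted p = 6.22e-06) and 3.11 with it (SE 0.195, adjusted p = 1.07e-06). Between the untreated lines DSP was higher and PPL and JUP lower in NS1 cells, 3 of 13 against a background of 12.5%. Between the treated lines DSP, FAM83H, EPPK1 and DSG2 were higher and SFN lower, 5 of 13 against 28.2%. EPPK1, epiplakin, averaged 9.06 CPM (SD 4.33, n = 3) in untreated and 31.4 CPM (SD 17.4, n = 3) in treated NS1 cells, and ran from 1.45 to 5.01 CPM in WT libraries. Without replicate 1, 3 were higher and 1 lower between the untreated lines (background 19.6%), and 7 higher and 1 lower between the treated lines (34.0%). PLEC, the linker plectin, was called in none of these fits, at a mean of 1313 CPM.

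Of 13 other intermediate filament genes, 7 were tested. Between the untreated lines 2 were lower in NS1 cells, NES and VIM, against 12.5% of all genes called. Between the treated lines 1 was higher (SYNM) and 3 lower (NES, VIM and LMNB2), against 28.2%. NES, below a mean of 10 CPM, averaged 6.17 CPM in untreated and 7.03 CPM in treated WT cells. In NS1 cells it averaged 0.712 and 0.625 CPM. VIM, the mesenchymal filament gene, was at 54.0 to 87.7 CPM in WT and 23.5 to 33.3 CPM in NS1 libraries. Its log2 fold change between lines was -1.20 without inducer (SE 0.185, adjusted p = 0.00159) and -1.30 with it (adjusted p = 0.000268). The nuclear lamins LMNB1 and LMNB2 fell with inducer in NS1 cells by 0.68 and 0.60 (adjusted p = 0.0343 and 0.00569). The list's median was -0.24 against 0.006 over all genes, and -0.03 without replicate 1, when the same pair was called. With the block SYNM was also called higher. These are 2 of 7 without the block and without replicate 1, against 6.15% and 11.4% of all genes, and 3 of 7 with it, against 25.9%.

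Transcription factors known to act on epithelial and keratin genes made a list of 15, with 9 tested. GATA3 rose with inducer in NS1 cells by 1.34 (SE 0.322, adjusted p = 0.0281), from 28.6 to 34.7 CPM untreated to 60.3 to 104.5 CPM treated, with no overlap. Without the block ELF3 and GATA3 were the 2 of 9 called, against a background of 6.15%. With the block 6 of 9 rose (ELF3, PPARG, TFAP2A, GATA3, KLF5 and FOXA1) and OVOL2 fell, against 25.9% of all genes called and 13.0% called higher, and the median was 0.36 against 0.005 over all genes. Without replicate 1 and without a block 5 rose and 1 fell (background 11.4%). Between the lines without inducer 1 was higher and 1 lower (background 12.5%), and without replicate 1 it was 3 and 1 (19.6%). Between the lines with inducer 5 were higher and 2 lower (background 28.2%), and without replicate 1 it was 6 and 1 (34.0%). ELF3 and TFAP2C, both below a mean of 10 CPM, are named because of their values. ELF3, an epithelium-specific ETS factor, was at 0.247 to 2.62 CPM in untreated and 3.48 to 19.5 CPM in treated NS1 cells, or 3.14 on the log2 scale (SE 0.716, adjusted p = 0.0223). TFAP2C, an AP-2 factor, was at 13.9 to 19.1 CPM in WT and 0.524 to 1.54 CPM in NS1 libraries, and its relative TFAP2A was at 19.7 to 26.7 CPM in WT and 39.2 to 61.5 CPM in NS1 libraries. Whether any of these factors bears on the keratin transcripts was not tested.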

How the data were processed

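Per the labels' protocols, NEBNext kits were used for poly(A) isolation and library preparation (Ultra II), and reads came from a 75-cycle NextSeq kit. Per the submitters' processing notes, STAR 2.7.3a, featureCounts 1.6.4 and hg38 were used; the annotation, strand setting and treatment of multiply mapping reads are not given in the sources used here. The authors deposited whole-number counts per gene, not normalized. Symbols came from a name table (60261 of 60603 identifiers), and positions and lengths from GENCODE 29 on GRCh38.

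Counts were fitted with edgeR 4.0.16 in R 4.3.3: filterByExpr over the 4 groups (17775 genes), TMM scaling, and a two-sided quasi-likelihood test over all 12 libraries with Benjamini-Hochberg adjustment over all genes tested. The fit without a block was run on simulated counts with a fixed dispersion and no replicate effect. The fits with a block were not tested in this way. Levels per length use the principal transcript. Alternatives were DESeq2 1.42.0, other scalings, no filter, replicate blocks, left-out libraries and, chosen after seeing the data, other lengths and counts summed with pseudogenes.

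Deviations from group means correlated between same-numbered untreated and treated libraries at 0.713, 0.386 and 0.384 in NS1 and 0.752, 0.385 and 0.256 in WT cells, each above 0.1, so the numbers were taken to pair them by the rule used. Replicates 2 and 3 also correlated across numbers, at 0.371 and 0.278 in NS1 and 0.367 and 0.248 in WT cells, while replicate 1 correlated negatively with both, so the correlations set apart replicate 1 more than they tell 2 from 3. Between lines the correlations were 0.136, 0.0719 and 0.19 untreated and 0.153, 0.12 and 0.00601 treated. They were not each above 0.1, and no block was used in the main line comparisons. A fit with a block for each number called the same keratins between the lines.

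The keratins, classes and gene lists were chosen with earlier results of these data known. All tested keratins, those above 3 counts, and called list members of at least 10 CPM were to be named.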

Additional observations from a re-analysis of the deposited data

Results flagged for a closer look

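For 5 keratins the inducer effect differed between the NS1 and WT lines when each replicate number within a line was a block (edgeR quasi-likelihood test of the interaction, Benjamini-Hochberg over all genes). Of all genes, 14.0% were called and 6.98% called higher in that test. The difference, NS1 minus WT on the log2 scale, was 2.49 for KRT17, 0.99 for KRT80, 0.53 for KRT19, 0.48 for KRT7 and 0.39 for KRT8. In NS1 cells all 5 were higher with inducer in 3 of 3 pairs, as was KRT15, which was not called. The block uses these same pairs, so they add no separate support. Without a block the adjusted p was 0.457 for KRT17, 0.617 for KRT80, 0.526 for KRT19, 0.764 for KRT7 and 0.721 for KRT8.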

How the results depend on the processing

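In NS1 cells with inducer, the number of keratins called was 0 in the model without a block, 2 with a replicate block for each number (KRT17 and KRT19), 5 with the replicate block within each line, 5 with no low-count filter (38 keratins tested in place of 11) and 0 to 4 when replicates or single libraries were left out. For the interaction it was 0, 5 with the replicate block within each line, 2 with no low-count filter and 0 to 2 when replicates or libraries were left out. Between the untreated lines it was 3, 7 with no low-count filter, and 0 to 7 when replicates or libraries were left out. Between the treated lines it was 5, 6 with no low-count filter (KRT17 added), and 1 to 10 when they were left out. In WT cells it was 0 under each alternative run. The share of all genes called is not given for the fits with no low-count filter or with a block for each number. It is also not given where single libraries, replicate 2 or replicate 3 were left out. More keratin calls in those fits may go with more calls over all genes. RLE size factors, library totals and DESeq2 gave the same number of calls as TMM with edgeR in all 5 comparisons, and the replicate block for each number changed only the count for the inducer in NS1 cells. The 4 simple keratins made up 99.07% of the summed level per kb of transcript, 98.81% per kb of coding sequence and 98.13% per kb of exon union.

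The sign of some small log2 fold changes turned. That of KRT222 in the interaction was 0.02, -0.04 with library totals and -0.07 with the replicate block within each line; the cause was not tested. Of the 55 log2 fold changes (11 keratins in 5 comparisons), 26 turned sign or reached 0 in at least 1 fit that left out a replicate number or a library. In WT cells with inducer the ranges were -0.27 to 0.28 for KRT7, -0.03 to 0.18 for KRT8, -0.01 to 0.26 for KRT18, -0.18 to 0.13 for KRT19, -0.17 to 0.04 for KRT10, -0.02 to 0.44 for KRT15, -0.41 to 0.21 for KRT17, -0.56 to 0.41 for KRT80, -0.51 to 0.93 for KRT81 and -0.11 to 0.91 for KRT34. In NS1 cells with inducer they were -0.07 to 0.41 for KRT18, -0.76 to 0.55 for KRT222, -0.69 to 0.53 for KRT34 and -0.72 to 0.17 for KRT81. Between the untreated lines they were -0.32 to 0.09 for KRT8, -0.26 to 0.16 for KRT10, -0.92 to 0.1 for KRT17 and 0.0 to 0.97 for KRT34, and between the treated lines -0.46 to 0.08 for KRT10 and -0.58 to 0.66 for KRT34. In the interaction they were -0.16 to 0.32 for KRT18, -0.47 to 0.84 for KRT222, 0.0 to 0.6 for KRT15, -0.33 to 0.06 for KRT10, -1.07 to 0.16 for KRT34 and -1.23 to 0.24 for KRT81. Depth limits the keratins near 3 counts, for which no change could be seen.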
